A study of Komagataella phaffii CBS 7435 with 54 samples.

Results

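The transcripts described here encode 10 of the enzymes and enzyme subunits that carry glucose 6-phosphate to pyruvate in the yeast P. pastoris (Komagataella phaffii). They are PGI1 (PAS_chr3_0456), PFK1 (PAS_chr2-1_0402), PFK2 (PAS_chr1-4_0047), FBA1 (PAS_chr1-1_0072), TPI1 (PAS_chr3_0951), TDH3, also called GAP (PAS_chr2-1_0437), PGK1 (PAS_chr1-4_0292), GPM1 (PAS_chr3_0826), ENO1 (PAS_chr3_0082) and the pyruvate kinase gene CDC19 (PAS_chr2-1_0769). They were picked by locus name and not by a cutoff on a measured value, but earlier results of these data were known when the list was made. Each is represented by 1 probe among the 5371 probes with 5318 systematic names on the array. Glucose-limited aerobic chemostats at dilution rates of 0.1, 0.075, 0.05 and 0.025 h-1 and retentostats, in which a filter holds back the biomass so that growth slows down from day to day, were compared on 2-color oligonucleotide arrays. The retentostat was sampled after 21 h (day 1), 65 h (day 3), 116 h (day 5), 380 h (day 16) and 545 h (day 23). Every condition had 3 numbered replicates, and each replicate was hybridized on 2 arrays with opposite dyes, which gave 54 arrays.

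All cultures were of the same background. The labels give the strain as CBS 7435, and the methods of the study describe a mutant of it in which FLO8, a regulator of surface attachment and filamentous growth, is disrupted; the slow and the fast cultures share this mutation, and none of the groups carries intact FLO8 according to these methods. The chemostats ran in other bioreactors than the retentostats, so that the cultivation system and the growth rate cannot be told apart between them. The common reference on every array was a pool of cells from glycerol, glucose and methanol cultures in several growth phases and stress states. The methods describe duplicate cultures, fewer than the 3 numbered replicates, so that standard deviations (SD), n = 3 and p values measure the spread between these replicates, part of which may be technical. The retentostat days are successive samples of the same cultures, and which numbered replicates share a culture is not known. The model took all 27 replicates as independent, so that the p values do not account for shared cultures.

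Glycolysis splits a hexose into a pair of triose phosphates and oxidizes these to pyruvate, with a net yield of ATP and NADH. Phosphofructokinase and pyruvate kinase run in this direction only. The other enzymes listed also work backwards in gluconeogenesis, when cells live on a carbon source such as ethanol. P. pastoris feeds most of its pyruvate into respiration rather than into ethanol formation while oxygen is sufficient, and its TDH3 promoter is in wide use as a strong constitutive promoter for recombinant proteins. The roles given below are those of the enzymes known from S. cerevisiae, since the gene table at hand pairs the loci with no product; for the same reason other genes of the pathway, such as hexokinase or isoenzymes, were not analysed here.

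All values are log2 ratios of culture over pool, so that levels can be compared between conditions for 1 gene, not between genes. A ratio describes the share of a transcript in the labeled RNA, and fewer cells with the transcript cannot be told apart from less of it per cell. The 10 probes were bright: each had 2 spots per array, all 108 spots of a probe were well above background in both channels, 0 were saturated and 0 carried an outlier mark. In average brightness, 8 of the 10 probes had a median percentile of 94.3 or more among the spots of an array, TDH3 and ENO1 stood at 99.9, and PFK1 and PFK2 at 61 and 89.5. Over all 9 conditions, the mean ratio of a member moved by 0.831 on the log2 scale (median), from 0.483 for PGK1 to 1.13 for PGI1, against a median of 0.689 for all probes. The median spot signal of the culture channel lay between 4008 and 4840 units in the chemostats and between 2112 and 2729 units in the retentostats, and its part in the results was not tested. The methods' LOESS step adjusts the ratios along brightness, and for these bright probes counts are therefore also given after each array had only been centred on its median (median centring). Shares of all probes were worked out for the LOESS fit only, so counts under other settings stand without such a share. Whether a change of such a count is particular to the members was not tested.

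**Figure D1:**
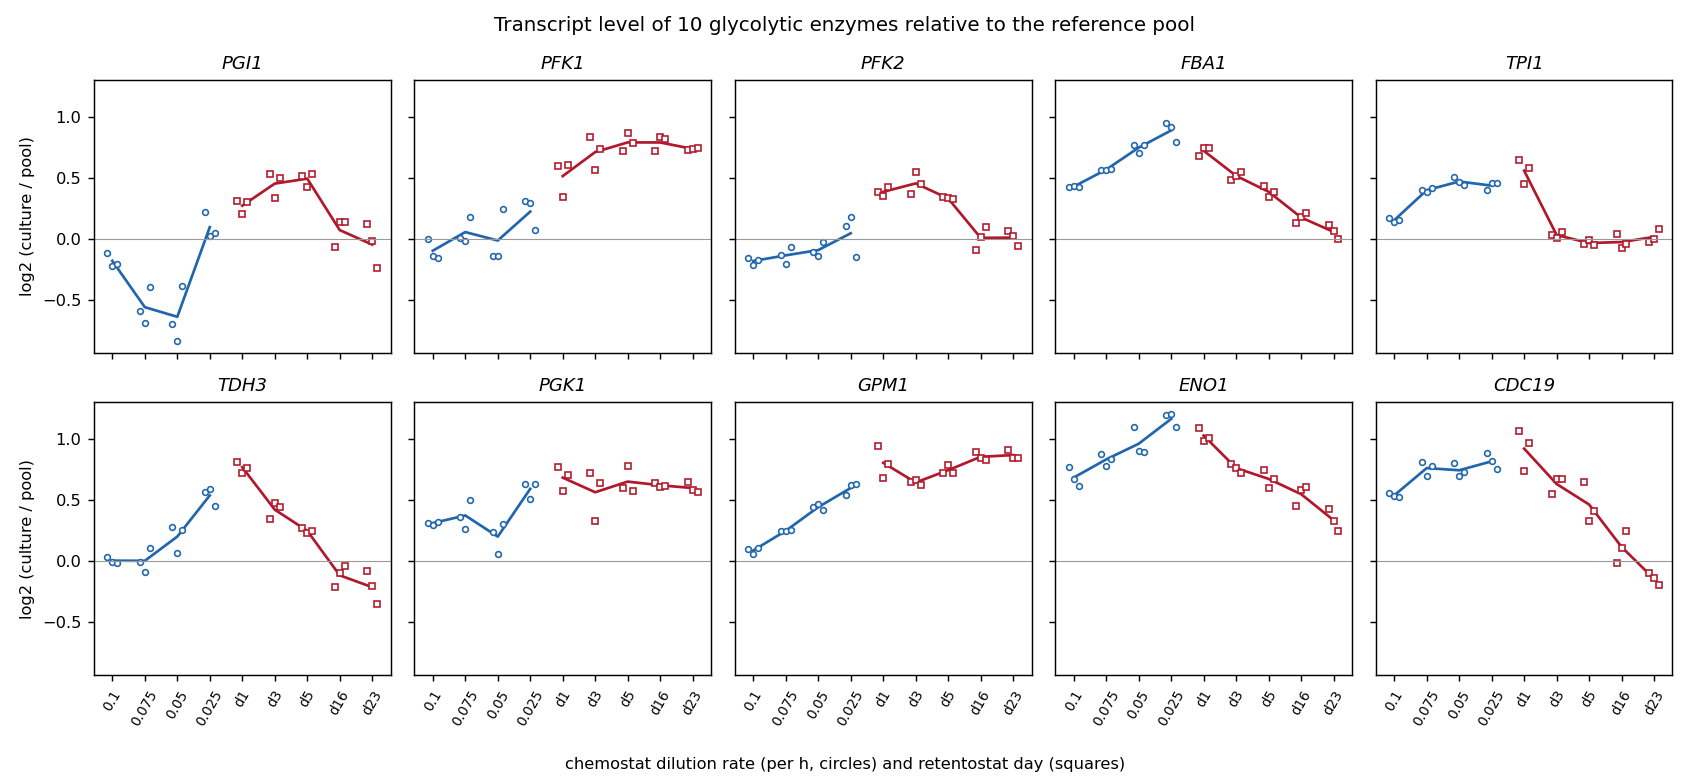
Log2 ratio of culture over pool (vertical axis) for the 10 enzymes in the 4 chemostats (blue circles, dilution rate in h-1) and on the 5 retentostat days (red squares, d1 to d23). Each symbol is 1 replicate and lines join the means of 3 replicates. FBA1, TDH3, ENO1 and CDC19 rose toward the slowest chemostat or day 1 and declined afterwards, whereas PFK1 and GPM1 stayed high to day 23.

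Phosphoglucose isomerase, which turns glucose 6-phosphate into fructose 6-phosphate, had the only transcript of the 10 that was called lower in the intermediate chemostats than at 0.1 h-1. PGI1 stood at -0.11, -0.22 and -0.21 in the 3 replicates at 0.1 h-1, at -0.59, -0.69 and -0.40 at 0.075 h-1 and at -0.70, -0.84 and -0.39 at 0.05 h-1. The replicates at the 2 intermediate rates were all below those at 0.1 h-1, by 0.38 ± 0.098 (SE) and 0.46 ± 0.098 on the log2 scale, or 1.30-fold and 1.37-fold lower (adjusted p = 0.00797 and 0.000511). Each replicate is a mean over both dye orientations, and single arrays did overlap. Replicate 1 at 0.1 h-1 was 0.30 with the culture in the dye Cy3 and -0.53 in Cy5, and replicate 3 at 0.075 h-1 was -0.30 in Cy3. At 0.025 h-1 the ratio was 0.22, 0.019 and 0.044, above every replicate at 0.1 h-1 (1.21-fold, adjusted p = 0.0175). In the retentostat PGI1 was 0.27 on day 1, 0.45 on day 3 and 0.49 on day 5, its highest mean, followed by 0.070 on day 16 and -0.049 on day 23. From day 5 to day 16 it fell by 0.42 ± 0.098 on the log2 scale (adjusted p = 0.00158), and on day 23, with replicates at 0.12, -0.023 and -0.24, its difference from 0.1 h-1 was not called (adjusted p = 0.209). Between days 1 and 23 PGI1 fell by 0.32 on the log2 scale (adjusted p = 0.00596), or not beyond the threshold without day 23 replicate 3 (0.0605). The SD of PGI1 reached 0.23 at 0.05 h-1, the widest of the members in any condition.

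The 2 listed genes for subunits of phosphofructokinase, the enzyme that commits fructose 6-phosphate to glycolysis, were both raised in early retentostat and then parted. PFK1 was 0.00043, -0.14 and -0.16 at 0.1 h-1 and 0.30, 0.29 and 0.070 at 0.025 h-1, and PFK2 was -0.16, -0.22 and -0.17 and 0.10, 0.18 and -0.15. Both were higher at 0.025 h-1, by 0.32 ± 0.093 and 0.23 ± 0.066 on the log2 scale (adjusted p = 0.00456 and 0.00473). On day 1 both had risen further, PFK1 to 0.59, 0.34 and 0.61 and PFK2 to 0.38, 0.35 and 0.42, which is 1.53-fold and 1.48-fold over 0.1 h-1 (adjusted p = 2.22e-06 and 3.67e-08). PFK1 then held its level: the means were 0.71, 0.79, 0.79 and 0.73 on days 3, 5, 16 and 23, and the day 23 replicates, at 0.73, 0.73 and 0.74, were all higher than those of day 1. That difference of 0.22 ± 0.093 had an adjusted p of 0.0364, and it lost its call when any of the 3 day 23 replicates or day 1 replicate 2 was left out (0.0652 to 0.228). Single arrays of PFK1 overlapped between both days. Day 23 replicate 3 was 0.88 with the culture in Cy3 and 0.61 in Cy5, and day 1 replicate 1 was 0.75 in Cy3. At 0.1 h-1 replicate 1 was 0.28 in Cy3 and -0.27 in Cy5. PFK2 peaked on day 3 at 0.45 and was 0.060, 0.025 and -0.061 on day 23, all below the day 1 replicates, a fall of 0.37 ± 0.066 on the log2 scale (adjusted p = 2.38e-05). The called step of PFK2 lay between days 5 and 16 (-0.32 ± 0.066, adjusted p = 0.000504), where PFK1 differed by -0.00060 ± 0.093 (adjusted p = 0.997). On day 23 PFK1 was 1.78-fold and PFK2 1.14-fold over the chemostat at 0.1 h-1 (adjusted p = 1.13e-08 and 0.0103); the difference between both genes was not tested.

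Aldolase and triosephosphate isomerase form and interconvert the triose phosphates. FBA1, the aldolase gene, was 0.42, 0.43 and 0.42 at 0.1 h-1, 0.56, 0.56 and 0.57 at 0.075 h-1, 0.77, 0.70 and 0.77 at 0.05 h-1 and 0.95, 0.92 and 0.79 at 0.025 h-1. Each slower chemostat lay above 0.1 h-1 without overlap, by 0.14 ± 0.043, 0.32 ± 0.043 and 0.46 ± 0.043 on the log2 scale (adjusted p = 0.023, 2.03e-06 and 2.6e-09). These replicates are means over both dye orientations, which differed for FBA1. At 0.1 h-1 single arrays were 0.21 to 0.23 with the culture in Cy3 and 0.62 to 0.64 in Cy5. In the retentostat the means of FBA1 were 0.72, 0.51, 0.38, 0.17 and 0.054 from day 1 to day 23. The day 23 replicates, 0.11, 0.058 and -0.0049, were below all other samples of the gene, 1.59-fold lower than day 1 (adjusted p = 2.08e-12) and 1.29-fold lower than 0.1 h-1 (adjusted p = 1.87e-08). TPI1 dropped in a single step. It was 0.17, 0.13 and 0.15 at 0.1 h-1, 0.39, 0.45 and 0.45 at 0.025 h-1 and 0.65, 0.45 and 0.58 on day 1, but 0.026, 0.0058 and 0.055 on day 3. The fall from day 1 to day 3 measured 0.53 ± 0.045 on the log2 scale (1.44-fold lower, adjusted p = 4.49e-09), the largest of the 10 members over that interval. From day 3 to day 23 the TPI1 means stayed between -0.036 and 0.029, and no later pair of neighbouring days was called.

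Glyceraldehyde-3-phosphate dehydrogenase, which oxidizes the triose phosphate and forms NADH, rose on day 1 against 0.1 h-1 and had one of the 2 largest declines within the retentostat. TDH3 was 0.034, -0.014 and -0.016 at 0.1 h-1, 0.57, 0.59 and 0.45 at 0.025 h-1, 0.81, 0.72 and 0.76 on day 1 and -0.082, -0.21 and -0.36 on day 23. All 3 replicates at 0.025 h-1 and on day 1 were above, and all 3 on day 23 were below, those at 0.1 h-1. The rise amounted to 1.45-fold at 0.025 h-1 (adjusted p = 2.86e-07) and 1.70-fold on day 1 (adjusted p = 2.23e-10), and between 0.1 and 0.075 h-1 the gene differed by -0.0012 ± 0.067 (adjusted p = 0.994). Day 23 lay 1.16-fold below 0.1 h-1 (adjusted p = 0.00454), a call that was lost without day 23 replicate 3 (0.0522). From day 1 to day 23 TDH3 fell 1.98-fold, -0.98 ± 0.067 on the log2 scale (adjusted p = 6.18e-12), just short of 2-fold; the larger steps were those from day 1 to day 3 (-0.35 ± 0.067) and from day 5 to day 16 (-0.36 ± 0.067). Phosphoglycerate kinase, which makes the first ATP of the payoff phase, changed little in the retentostat. PGK1 was 0.31, 0.29 and 0.32 at 0.1 h-1, 0.77, 0.57 and 0.70 on day 1 and 0.64, 0.58 and 0.56 on day 23, all retentostat replicates being above all those at 0.1 h-1. Its difference between days 23 and 1 was -0.085 ± 0.082, with a 95% confidence interval from -0.25 to 0.084, and it was the only member that the F test over the 5 days did not call (adjusted p = 0.652). On day 23 PGK1 was 1.22-fold over 0.1 h-1 (adjusted p = 0.00245), and after median centring 0.13 on the log2 scale (adjusted p = 0.218).

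Phosphoglycerate mutase and enolase catalyze neighbouring reactions and took different courses in the retentostat. GPM1, the mutase gene, was 0.10, 0.053 and 0.10 at 0.1 h-1, 0.54, 0.62 and 0.63 at 0.025 h-1, 0.94, 0.68 and 0.79 on day 1 and 0.91, 0.85 and 0.84 on day 23. Its level was higher in every other condition than at 0.1 h-1 without overlap, 1.12-fold at 0.075 h-1 (adjusted p = 0.0202), 1.43-fold at 0.025 h-1 (adjusted p = 3.12e-09) and 1.72-fold on day 23 (adjusted p = 1.52e-13), its highest mean. Between days 1 and 23 GPM1 differed by 0.063 ± 0.048 (95% confidence interval -0.036 to 0.16), which was not called; the value was -0.00024 without day 1 replicate 2 and 0.13, then called higher on day 23 (adjusted p = 0.00856), without day 1 replicate 1. ENO1 was 0.77, 0.67 and 0.61 at 0.1 h-1 and 1.19, 1.20 and 1.1 at 0.025 h-1, its highest condition, 1.40-fold up (adjusted p = 3.37e-07). It was 1.09, 0.98 and 1.00 on day 1 and 0.43, 0.32 and 0.25 on day 23, all day 23 replicates being below every replicate at 0.1 h-1 and on day 1. The fall of ENO1 within the retentostat was 1.62-fold (adjusted p = 5.17e-10), and day 23 lay 1.27-fold below 0.1 h-1 (adjusted p = 1.13e-05).

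Pyruvate kinase, which makes the second ATP and releases pyruvate, had the transcript with the largest fall. CDC19 was 0.56, 0.53 and 0.52 at 0.1 h-1, 0.88, 0.81 and 0.75 at 0.025 h-1 and 1.06, 0.73 and 0.96 on day 1, and then 0.63, 0.46 and 0.11 on days 3, 5 and 16 and -0.10, -0.14 and -0.20 on day 23. The day 23 replicates were the lowest of all 27 for this gene. Against 0.1 h-1, CDC19 was 1.21-fold higher at 0.025 h-1 (adjusted p = 0.00335), 1.30-fold higher on day 1 (adjusted p = 9.81e-05), 1.34-fold lower on day 16 (adjusted p = 2.46e-05) and 1.61-fold lower on day 23 (adjusted p = 1.6e-08). From day 1 to day 23 it fell 2.10-fold, -1.07 ± 0.078 on the log2 scale (adjusted p = 2.24e-11), and was the 1 member beyond 2-fold in that comparison, against 4.62% of all probes. The day 1 replicates spread over 1.06, 0.73 and 0.96; without day 1 replicate 1 no member passed 2-fold, and after median centring CDC19 fell by 0.98. Of the genes for the steps that run in 1 direction only, PFK1 had the highest and CDC19 the lowest value of all members against 0.1 h-1 on day 23. PFK2 lay between them at 0.19. GPM1, whose step also runs backwards, stood at 0.78, close to PFK1 at 0.83.

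Across the chemostats, the question was how glycolytic transcripts changed as glucose-limited growth slowed from 0.1 to 0.025 h-1. All 10 members were higher at 0.025 h-1 than at 0.1 h-1 at an adjusted p below 0.05, by 0.23 (PFK2) to 0.53 (TDH3) on the log2 scale, whereas 36.7% of all probes were higher and 27.1% lower in this comparison. The median of the members was 0.30, that of all probes 0.036. TDH3, GPM1, ENO1 and FBA1 showed the 4 largest rises, 1.45-fold, 1.43-fold, 1.40-fold and 1.38-fold. After median centring these genes stood at 0.26, 0.26, 0.22 and 0.22 on the log2 scale, below PFK1 at 0.32. With this centring in place of LOESS the count was 6 of 10 with a median of 0.22: PGI1, TPI1, PGK1 and CDC19 were no longer called, with values of 0.18, 0.033, 0.15 and 0.080. PGI1 also lost its call without 0.1 h-1 replicate 2 or 0.025 h-1 replicate 1 (adjusted p = 0.0549 and 0.095), and PFK2 without 0.025 h-1 replicate 2 (0.0514). The arrays were read on 2 scanners, 1 of which held 5 of the 6 arrays at 0.1 h-1 and 4 of the 6 at 0.025 h-1; within it 10 members were called, and within the other, with a single array at 0.1 h-1, 3 were called and PFK2 stood at -0.17. No slide held both conditions with both dyes.

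At the intermediate rates fewer members differed from 0.1 h-1. At 0.05 h-1 FBA1, TPI1, TDH3, GPM1, ENO1 and CDC19 were higher and PGI1 lower, 6 and 1 of 10 members against 30.1% and 18.0% of all probes. At 0.075 h-1 FBA1, TPI1, GPM1 and CDC19 were higher and PGI1 lower, 4 and 1 of 10 against 10.2% and 9.20% of all probes. The medians of the members were 0.20 and 0.14 on the log2 scale, those of all probes 0.034 and 0.012. After median centring 1 member was higher at 0.05 h-1 and 0 at 0.075 h-1, while PGI1 was lower at both rates, and at 0.075 h-1 the count of higher members fell to 1 or 2 whichever replicate of the pair of conditions was left out. The moderated F test over the 4 chemostats called 10 of 10 members, against 75.3% of all probes, and 7 after median centring.

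**Figure D2:**
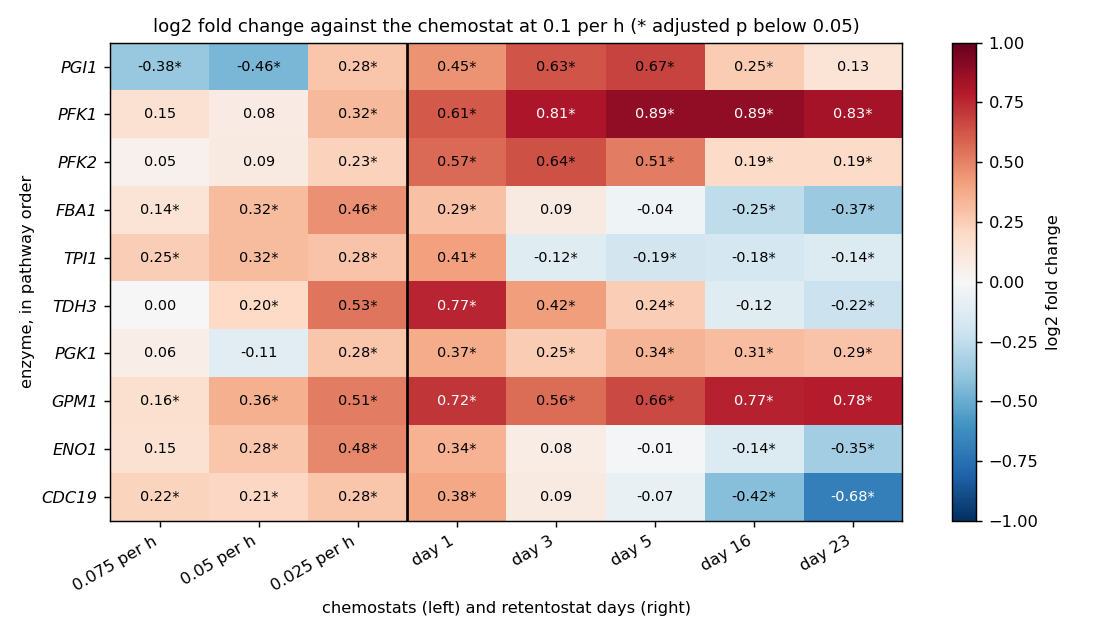
Log2 fold change of each enzyme (rows, in pathway order) against the chemostat at 0.1 h-1 in the 3 slower chemostats and on the 5 retentostat days (columns), with red for higher and blue for lower values and an asterisk for an adjusted p below 0.05. Values run from -0.68 for CDC19 on day 23 to 0.89 for PFK1 on day 5, and the columns for 0.025 h-1 and day 1 hold positive values for all 10 enzymes.

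The retentostat extended the range to near-zero growth, and there the 10 members were higher than at 0.1 h-1 on day 1 but were divided between higher and lower on the later days. On day 1 all 10 were higher than at 0.1 h-1, by 0.29 (FBA1) to 0.77 (TDH3) on the log2 scale, against 42.2% of all probes higher and 36.0% lower, and the median of the members was 0.43 against 0.038. After median centring 5 of 10 were called on day 1 (PGI1, PFK1, PFK2, TDH3 and GPM1) with a median of 0.23, PFK1 having the largest value (0.50, TDH3 0.47), and FBA1, TPI1, PGK1, ENO1 and CDC19 stood at 0.039 to 0.17. On days 3 and 5 the same counts were found: PGI1, PFK1, PFK2, TDH3, PGK1 and GPM1 were higher and TPI1 was lower, 6 and 1 of 10, against 43.0% and 39.4% of all probes on day 3 and 44.0% and 39.5% on day 5. With median centring the split was 5 higher and 1 lower on day 3 and 4 higher and 4 lower on day 5. On day 16 PGI1, PFK1, PFK2, PGK1 and GPM1 were higher and FBA1, TPI1, ENO1 and CDC19 lower, 5 and 4 of 10 against 46.0% and 38.2% of all probes. On day 23 PFK1, PFK2, PGK1 and GPM1 were higher and FBA1, TPI1, TDH3, ENO1 and CDC19 lower, 4 and 5 of 10 against 46.0% and 38.4%. The medians of the members were 0.035 and -0.0017 on days 16 and 23, and median centring gave 2 higher and 5 lower on both days. On day 16 the count of higher members was 3 without day 16 replicate 3, since PGI1 and PFK2 lost their calls.

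The 8 comparisons share the samples at 0.1 h-1 and are therefore not independent of each other. None of the 10 members passed the 2-fold criterion of the methods in any of them, the largest change being 1.85-fold for PFK1 on day 5. Beyond 2-fold lay 0, 0.242 and 1.42% of all probes at 0.075, 0.05 and 0.025 h-1 and 10.3, 16.7, 19.0, 20.2 and 20.8% on the 5 retentostat days in order. In 1 slide that held both dyes of both conditions, day 23 differed from 0.1 h-1 by -0.69 for CDC19, -0.37 for FBA1, 0.78 for GPM1 and 0.86 for PFK1, and the signs of all 10 members were those of the full data. That slide is part of the full data, so its values add no independent support. Of the called day 23 values, those of TPI1 and TDH3 were not called with the log ratios of the scanner software (-0.025 and -0.10 on the log2 scale).

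Day 1 was also compared with the chemostat at 0.025 h-1, the rate from which growth declined in the retentostats. These chemostats were cultures apart from the chemostat phase that preceded each retentostat, and the bioreactor systems differ in this comparison. The methods of the study avoided such a direct comparison and set samples of both systems against 0.1 h-1. PFK1, PFK2, TPI1, TDH3 and GPM1 were higher on day 1, by 0.12 (TPI1) to 0.34 (PFK2) on the log2 scale, and FBA1 was 1.12-fold lower (adjusted p = 0.00184). These were 5 and 1 of 10 members against 30.9% and 27.2% of all probes. PFK2 had the largest difference, 1.27-fold (adjusted p = 0.00013), with day 1 replicates at 0.38, 0.35 and 0.42 all above 0.10, 0.18 and -0.15. The replicates of TPI1 overlapped, and PFK1 and TPI1 were not called after median centring (0.19 and 0.097), nor with the slide as a block. Without day 1 replicate 3 the same 2 genes lost their calls and 3 members remained higher (adjusted p = 0.0539 and 0.0718). Within the slide that held both conditions PFK2 differed by 0.27, GPM1 by 0.40 and FBA1 by -0.27.

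Within the retentostat most called falls lay between days 1 and 3 and between days 5 and 16. From day 1 to day 3 FBA1, TPI1, TDH3, GPM1, ENO1 and CDC19 were lower, 6 of 10 against 22.5% of all probes, and 0 were higher by limma against 22.1% (1, PFK1, at an unadjusted p below 0.05). From day 5 to day 16 PGI1, PFK2, FBA1, TDH3 and CDC19 were lower, 5 of 10 against 20.4%, and 0 higher against 20.2% (1, GPM1, at an unadjusted p below 0.05). From day 3 to day 5 FBA1 was lower, 1 of 10 against 6.83%, and 0 higher against 4.78% (1, GPM1, unadjusted), and from day 16 to day 23 ENO1 was lower, 1 of 10 against 2.55%, and 0 higher against 2.03% (0 unadjusted). At an unadjusted p below 0.05, TDH3 and CDC19 were also lower from day 3 to day 5, both by 0.17. The same held for FBA1 and CDC19 from day 16 to day 23, by 0.12 and 0.26 (adjusted p = 0.113 and 0.0533). The single calls of FBA1 (-0.13, adjusted p = 0.0494) and ENO1 (-0.21, adjusted p = 0.0433) lay near the threshold, and left-out replicates gave counts of 0 to 2 lower members for both intervals; 0 members were lower without either of day 3 replicates 2 and 3 or day 5 replicates 2 and 3, and without either of day 16 replicates 2 and 3 or day 23 replicates 2 and 3. With median centring 2 members, TPI1 and TDH3, were lower from day 1 to day 3 and 6 from day 5 to day 16, and 0 were lower between days 3 and 5 and between days 16 and 23.

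Over the whole retentostat, from day 1 to day 23, PGI1, PFK2, FBA1, TPI1, TDH3, ENO1 and CDC19 fell, 7 of 10 against 34.2% of all probes, and PFK1 rose, 1 of 10 against 36.2%. The median of the members was -0.46 on the log2 scale, that of all probes 0.013. The falls ran from 0.32 for PGI1 to 1.07 for CDC19, and GPM1 and PGK1 were not called. The same number, 7, was lower after median centring, with values from -0.27 (PGI1) to -0.98 (CDC19), and also with the log ratios of the scanner software and with the deposited table of ratios. In each of the 2 slides that held both days with both dyes these 7 members were lower on day 23, CDC19 by 1.16 and 0.88 and TDH3 by 0.89 and 0.93 on the log2 scale. Both slides are part of the arrays on which the 7 members were called, so these values add no independent support. The share of all probes that kept their sign within a slide was not worked out. The F test over the 5 days called 9 of 10 members, against 83.6% of all probes, and 7 after median centring.

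These 7 transcripts were higher in the slowest than in the fastest chemostat, but lower at the end than at the start of the retentostat. The difference between both changes was tested directly, as the change from day 1 to day 23 minus the change from 0.1 to 0.025 h-1. It was largest for TDH3, -1.52 ± 0.094 (adjusted p = 3.32e-12), followed by CDC19 with -1.35 ± 0.11 (adjusted p = 3.11e-10). A rise along the chemostats, a fall along the retentostat and a difference between them, all at an adjusted p below 0.05, were found for 7 of 10 members, against 10.0% of all probes, and opposite changes in either order for 16.9% of all probes. For PGK1 and GPM1 both changes also differed from each other (-0.366 and -0.449, adjusted p = 0.00825 and 4.11e-06). After median centring the differences of these genes were -0.20 and -0.15 and were not called (0.216 and 0.15). The changes span different growth rates as well as different cultivation systems, which cannot be told apart here. For PFK1 the difference was -0.0978 ± 0.13 (adjusted p = 0.533). After median centring 4 of the 7 met all the criteria, namely PFK2, FBA1, TDH3 and ENO1, because the rises of PGI1, TPI1 and CDC19 along the chemostats were then not called; their falls in the retentostat still were.

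**Figure D3:**
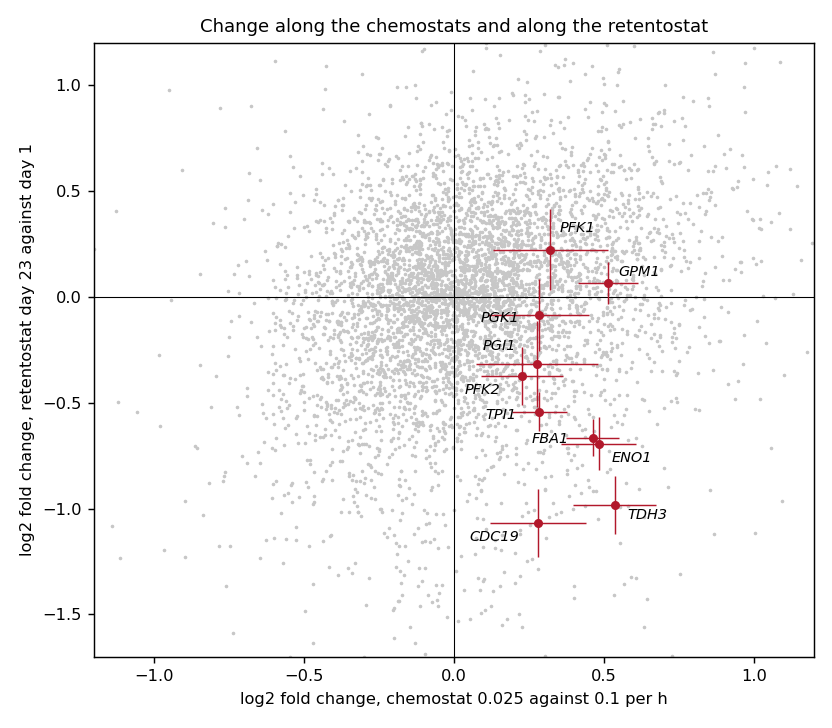
Log2 fold change along the retentostat (day 23 against day 1, vertical axis) plotted over that along the chemostats (0.025 against 0.1 h-1, horizontal axis) for the 10 enzymes (red, bars are 95% confidence intervals) and all probes (gray, of which 89 lie outside the axes). The 10 enzymes lie to the right of 0, and 7 of them lie below 0 on the vertical axis with intervals that do not reach it.

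**Figure D4:**
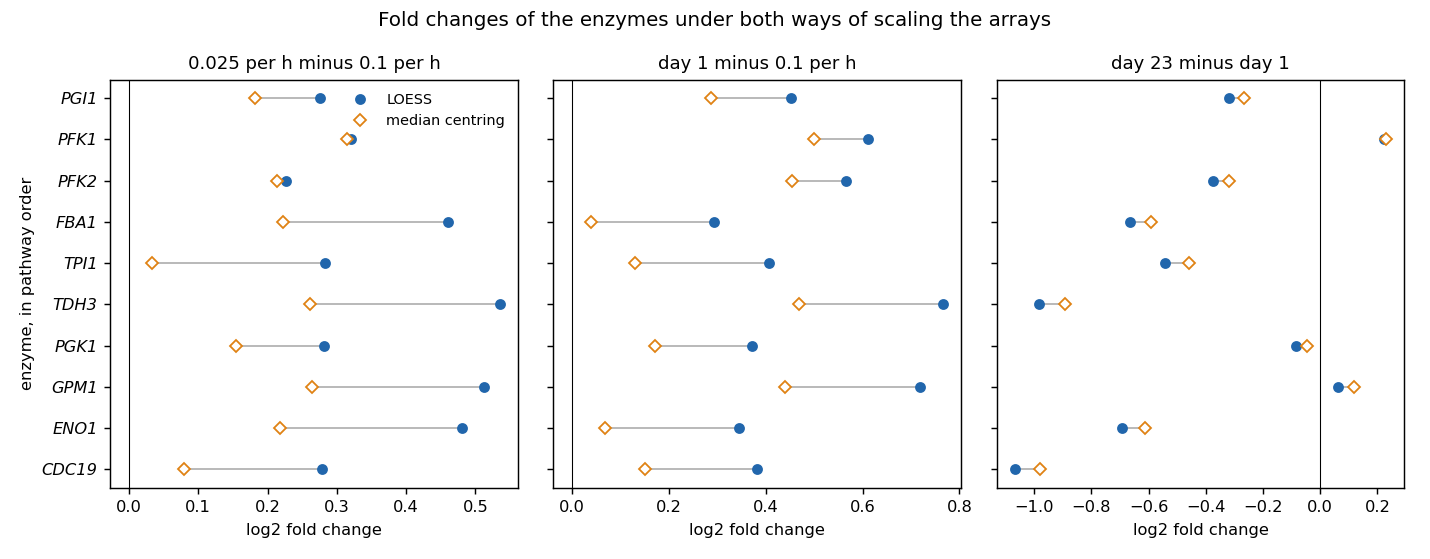
Log2 fold changes of the 10 enzymes (rows) after LOESS (blue circles) and after median centring of each array (orange diamonds) for 0.025 against 0.1 h-1, day 1 against 0.1 h-1 and day 23 against day 1. Median centring gave smaller rises for the first 2 comparisons, for example 0.033 in place of 0.28 for TPI1 at 0.025 h-1, and moved the values of the third comparison by less than 0.1.

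The members did not share 1 profile over the 9 condition means. Of 45 pairs, 18 had a negative Pearson correlation, and the values ran from -0.638 (PFK1 and TPI1) to 0.988 (FBA1 and ENO1) with a median of 0.314. FBA1, TPI1, TDH3, ENO1 and CDC19 correlated with each other at 0.565 to 0.988. They are also the members called lower on day 23 than at 0.1 h-1 on the same values, so this describes them and adds no support. Among the other pairs, PFK1 correlated with GPM1 at 0.887, PGI1 with PFK2 at 0.851, PGI1 with PGK1 at 0.842 and PFK1 with PGK1 at 0.838. These are descriptions over 9 conditions that share the pool and the arrays. The members lie on chromosomes 1, 2 and 3 (3, 3 and 4 genes, assembly ASM2700v1 of strain GS115), the closest pair being PFK1 and TDH3 with 41 genes between them, so no members are neighbours.

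For the 3 members with the widest range, PGI1, CDC19 and TDH3, the most similar other probes were sought among 1514 probes that were well above background on all arrays and moved by more than 1 on the log2 scale. PAS_chr1-1_0216 followed PGI1 with a Pearson correlation of 0.965, PAS_chr1-1_0340 followed CDC19 with 0.982 and PAS_chr1-1_0052 followed TDH3 with 0.948 over the 9 condition means, and the next in order reached 0.965, 0.977 and 0.929. PAS_chr1-1_0340 went from 0.12 at 0.1 h-1 over 0.69 on day 1 to -0.74 on day 23, where CDC19 went from 0.54 over 0.92 to -0.15. The gene table gives no product for these loci.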

How the data were processed

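Intensities were measured on 54 2-color Agilent arrays, scanned and quantified by the authors with Feature Extraction 11.5.1.1; the deposited files hold median spot and background intensities and, per the file headers, a log10 ratio of red over green. Processed log2 ratios were deposited as well, with 36 columns that held culture over pool and 18 pool over culture (found by comparison with the spots and turned here).

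From the intensities, background was corrected by normexp (offset 50) and ratios were normalized by LOESS within arrays and by Aquantile between arrays, which leaves ratios as they are, with R 4.3.3 and limma 3.58.1. Of 12958 spots, 536 controls were left out, as were spots with outlier marks (0.676%). Both dyes of a replicate were averaged, as were the 2 spots of a probe. One model over 9 conditions was fitted with lmFit and eBayes, and p values were adjusted over all 5371 probes after Benjamini and Hochberg; a difference was called at an adjusted p below 0.05. The number of arrays limits the precision. Spots well above background made up 89.9 to 98.4% of an array. The code was tested on simulated data.

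All members are named, and for the 3 with the widest range the 2 most similar probes were sought. The members and lists were chosen with earlier results of these data known. The comparisons of neighbouring retentostat days, fits within 1 scanner, values within 1 slide and the counts over several conditions under other ratio settings were added after the data had been seen. Alternatives changed background, normalization, blocks, threshold, samples and replicates.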

Additional observations from a re-analysis of the deposited data

Results flagged for a closer look

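For 7 of the 10 transcripts the change along the retentostat was opposite to that along the chemostats, and the difference between both changes was itself tested in limma over all probes. The change from day 1 to day 23 minus the change from 0.1 to 0.025 h-1 was -0.595 for PGI1, -0.602 for PFK2 and -0.827 for TPI1 on the log2 scale. It was -1.13 for FBA1, -1.17 for ENO1, -1.35 for CDC19 and -1.52 for TDH3. All 3 replicates of each of these genes on day 23 were below all 3 of day 1, and all 3 at 0.025 h-1 above all 3 at 0.1 h-1. Since the genes were singled out by calls on the same values, this describes them and adds no support. All 10 members were without overlap between 0.025 and 0.1 h-1, PFK2 narrowly (-0.153 against -0.160). The share of all probes without overlap was not worked out.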

How the results depend on the processing

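Under settings other than single left-out replicates, 604 of 689 counts and medians kept their value within 1.5 times or within the replicate SD, and 1401 of 1561 values of single members kept direction and call (125 lost the call, 14 gained it, 21 turned). Leaving out saturated spots and keeping outlier spots each gave 162 of 162 rows the same. These settings could barely change the members, which had no saturated or outlier spots, so the totals overstate how far the results were tested. Median centring in place of LOESS moved most. It gave 0, 1, 6 and 5 higher members at 0.075, 0.05 and 0.025 h-1 and on day 1 (medians 0.027, 0.083, 0.22 and 0.23), 2 higher on days 16 and 23 (medians -0.12 and -0.15), 4 lower on day 5 (median 0.14) and a median of 0.18 on day 3, where FBA1, ENO1 and CDC19 turned to -0.066, -0.088 and -0.040. From day 1 to day 23 it gave 0 higher and 0 beyond 2-fold, from day 1 to day 3 2 lower (median -0.084), between days 3 and 5 and days 16 and 23 0 lower, for day 1 against 0.025 h-1 3 higher, and 4 opposite changes. In the reported fit and in the 7 alternatives of background, ratio and spot choice the median of all probes lay within 0.1 of 0 on the log2 scale.

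With the log ratios of the scanner software the medians were 0.34 at 0.025 h-1, 0.49 on day 1, 0.39 on day 3 and 0.093 on day 23, with 0 lower members on days 3 and 5, 2 on day 16, 3 on day 23 and 0 between days 3 and 5; FBA1, ENO1 and CDC19 turned to 0.056, 0.077 and 0.016 on day 5 and TDH3 to 0.0023 at 0.075 h-1. With the deposited ratios 1 member was higher at 0.075 h-1, 0 lower on day 3 and 3 lower on day 23; for day 1 against 0.025 h-1 3 were higher and 0 lower, from day 1 to day 3 1 was higher, and between days 3 and 5 and days 16 and 23 0 were lower. With the offset at 0, 2 members were lower on day 1 than at 0.025 h-1, 0 between days 3 and 5, and TDH3 at 0.075 h-1 was 1.1e-06. Without background correction 0 were lower between days 3 and 5 and 2 between days 16 and 23.

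With the slide as a block 2 members were higher at 0.075 h-1, 3 on day 1 than at 0.025 h-1, 0 lower between days 3 and 5 and 2 between days 16 and 23; the median at 0.025 h-1 was 0.35, TDH3 at 0.075 h-1 was 0.017 and ENO1 on day 5 0.029. With the scanner as a block the last 2 values were 0.0016 and 0.023, with 0 lower between days 3 and 5 and 2 between days 16 and 23. With the arrays of 1 scanner, 1 member was higher and 0 lower at 0.075 h-1, 0 lower on day 3, 3 higher on day 16, 0 higher from day 1 to day 23, 2 higher for day 1 against 0.025 h-1, and 0 lower between days 3 and 5 and days 16 and 23; the median at 0.025 h-1 was 0.38, TDH3 at 0.075 h-1 0.012, PFK1 at 0.05 h-1 -0.15, and ENO1 and CDC19 on day 5 0.050 and 0.10. With those of the other scanner, which held 1 array at 0.1 h-1 and none of day 23, 0, 1 and 3 members were higher at 0.075, 0.05 and 0.025 h-1 and 2 on day 16, 0 lower on days 3 and 5 (medians 0.28 and 0.20), and 3 higher and 0 lower for day 1 against 0.025 h-1; PFK2 turned to -0.15, -0.046 and -0.17 in the 3 chemostats, PGK1 at 0.075 h-1 to -0.015 and ENO1 on day 5 to 0.013. The cause of these changes was not tested. At an adjusted p below 0.01, 1 member was higher at 0.075 h-1, 3 on day 16, 3 for day 1 against 0.025 h-1 and 0 from day 1 to day 23, and 0 were lower on day 3, between days 3 and 5 and between days 16 and 23. With only the conditions compared in the fit, the last 2 counts were also 0.

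The replicate numbers did not pair the samples: same-numbered deviations correlated at -0.595 to 0.471 (median 0.0318), and 12 of 27 replicates correlated best with their own number. With the replicate number as a block (replicate block), 10 members were higher at 0.025 h-1, and 7 opposite changes were found; 2 members were lower for day 1 against 0.025 h-1, 0 between days 3 and 5 and 2 between days 16 and 23. With arrays entered singly and the replicate as a random block, 0 were higher from day 1 to day 23, and 2 were lower between days 3 and 5 and 2 between days 16 and 23.

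With 1 replicate left out, 1 to 2 members were higher and 0 to 1 lower at 0.075 h-1 (0 without 0.075 h-1 replicate 2), and the median at 0.025 h-1 was 0.29 to 0.36. The median on day 3 was 0.31 to 0.38, 1 to 2 members were lower on day 5 (2 without day 5 replicate 1), and 3 to 5 were higher on day 16. From day 1 to day 23, 0 to 2 were higher (2 without day 1 replicate 1) and 0 to 2 beyond 2-fold (2 without day 1 replicate 2 or day 23 replicate 1). For day 1 against 0.025 h-1, 3 to 6 were higher and 1 to 2 lower (2 without 0.025 h-1 replicate 3 or day 1 replicate 1). From day 1 to day 3, 0 to 1 were higher (1 without day 3 replicate 2), and 0 to 2 were lower between days 3 and 5 and between days 16 and 23. Values that turned were those of TDH3 at 0.075 h-1 (-0.053 to 0.045, above 0 without 0.1 h-1 replicate 1 or 0.075 h-1 replicates 1 or 2, at 0.015, 0.0045 and 0.045), PGK1 there (-0.0019 to 0.12, the lowest without 0.075 h-1 replicate 3), PFK1 at 0.05 h-1 (-0.044 to 0.15, the lowest without 0.05 h-1 replicate 3), ENO1 on day 5 (-0.048 to 0.031, above 0 without 0.1 h-1 replicate 1 or day 5 replicate 2) and GPM1 between days 1 and 23 (-0.00024 to 0.13, the lowest without day 1 replicate 2), none of them called with all replicates; GPM1 was called at 0.13 (adjusted p = 0.00856 in limma, without day 1 replicate 1). Depth has no equivalent on arrays; all members were well above background on all arrays.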
